A study of Mus musculus with 3 samples.

Results

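The amino acid and endoplasmic reticulum (ER) stress response genes were 39 genes taken by name from a list, out of 18194 genes named on the arrays. Of these, 27 are genes linked to the transcription factor ATF4: 9 stress factors, 6 enzymes of amino acid and folate-linked synthesis, 6 amino acid transporters and 6 cytosolic tRNA synthetases. The other 12 work in protein folding and disposal in the ER and were kept apart. Each gene was represented by 1 of its probe sets, the brightest by mean log2 signal. All 39 genes had a probe set, 90 in total, and all were above the detection floor on every array, so no gene was lost to the filter on low values.

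The signals came from 3 primary cultures of pigmented epithelium from the eyes of C57BL/6 mice aged 6 to 8 weeks, each hybridised to 1 array. Retinal pigment epithelium (RPE), the layer behind the photoreceptors, was grown in DMEM with 20% fetal bovine serum, and more than 95% of cells stained for cytokeratin after 14 days. Ciliary body pigment epithelium (CBPE), from the tissue that forms aqueous humour, was grown in RPMI 1640 with 10% serum, with the same cytokeratin share and culture time. Iris pigment epithelium (IPE) was grown in RPMI 1640 with 10% serum, and more than 99% of its cells stained for cytokeratin. Its culture time and the number of mice behind any of the cultures were not given in the sources used here. All 3 cultures were kept without serum overnight before RNA was taken. RPE therefore differed from both others in medium as well as in tissue, and these cannot be told apart.

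When an amino acid runs short or unfolded protein gathers in the ER, kinases phosphorylate the initiation factor eIF2 and most translation slows, while translation of the Atf4 mRNA increases. ATF4 then activates genes that make, import and charge amino acids, together with Ddit3, Trib3 and Chac1, which act later in the stress response. A separate branch, run by ATF6 and by IRE1 through XBP1, raises the chaperones and the degradation machinery of the ER. In the eye, the retinal pigment epithelium is known for a heavy load of secretion and phagocytosis.

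The promoters carry known binding motifs for both branches, so the members that mark each branch are shown with their matches. ATF4 and its C/EBP partners bind TGATGNAA, the C/EBP-ATF response element, which was present in 3.97% of 32851 RefSeq promoters (250 bases before the start to 50 after, both strands). Among the 21 ATF4-linked genes with a promoter entry, 5 held it: Asns, Chac1, Gars, Slc7a11 and Trib3. The ER stress element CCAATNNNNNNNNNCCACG was present in 0.119% of promoters and in 6 of the 12 ER folding genes: Hspa5, Hsp90b1, Calr, Canx, Pdia6 and Dnajc3. It was in 0 of the 21 ATF4-linked promoters. The shorter ER stress element II, present in 0.0365% of promoters, was found in Herpud1, which was also the only ER folding gene with a match to the ATF4 motif. No 2 matches overlapped. A match is a run of letters and not a measured binding site. Asns, Chac1 and Gars were at least 2-fold above IPE in both RPE and CBPE, while Slc7a11, with 2 matches, was not. Trib3, whose match lies after the start, was also at least 2-fold above IPE in both. So were Atf5, Ddit3, Psat1, Psph, Phgdh and Mthfd2, which had a promoter entry and no match. Below are the 210 bases before the start in the RefSeq GRCm38.p6 table, 5′ to 3′ on the gene's strand, with the matches in capitals.
Asns, chr6:7693210-7693419, minus strand: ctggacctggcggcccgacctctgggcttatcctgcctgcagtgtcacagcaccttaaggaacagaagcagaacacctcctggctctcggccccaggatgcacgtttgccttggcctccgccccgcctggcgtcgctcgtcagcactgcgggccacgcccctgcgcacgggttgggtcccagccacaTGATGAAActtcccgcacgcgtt
Chac1, chr2:119351032-119351241, plus strand: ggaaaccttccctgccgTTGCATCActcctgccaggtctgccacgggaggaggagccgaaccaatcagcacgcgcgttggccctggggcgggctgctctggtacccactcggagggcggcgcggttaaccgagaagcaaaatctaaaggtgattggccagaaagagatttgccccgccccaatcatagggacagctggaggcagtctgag
Gars, chr6:55037791-55038000, plus strand: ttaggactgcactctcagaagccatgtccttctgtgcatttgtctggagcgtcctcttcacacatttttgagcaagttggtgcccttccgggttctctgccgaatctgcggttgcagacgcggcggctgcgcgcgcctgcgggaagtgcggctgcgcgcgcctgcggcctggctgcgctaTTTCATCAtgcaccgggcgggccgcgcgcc
Slc7a11, chr3:50443614-50443823, minus strand: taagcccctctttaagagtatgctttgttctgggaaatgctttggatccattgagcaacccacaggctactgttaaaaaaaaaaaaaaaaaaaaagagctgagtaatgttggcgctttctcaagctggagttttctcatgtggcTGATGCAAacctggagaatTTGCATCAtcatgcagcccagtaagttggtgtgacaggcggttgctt

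For the ER branch, Hspa5 and Pdia6 stand for the chaperones and isomerases, Dnajc3 for the member that was lower in RPE and CBPE, and Herpud1 for the member that was higher. The capitals mark the ER stress element in Hspa5, Pdia6 and Dnajc3. In Herpud1 the first run in capitals is the ATF4 motif, read on the other strand, and the other is ER stress element II.
Hspa5, chr2:34771880-34772089, plus strand: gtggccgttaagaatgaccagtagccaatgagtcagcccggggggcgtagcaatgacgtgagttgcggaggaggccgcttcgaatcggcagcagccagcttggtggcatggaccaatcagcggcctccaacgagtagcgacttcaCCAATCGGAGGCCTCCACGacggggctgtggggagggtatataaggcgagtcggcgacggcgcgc
Pdia6, chr12:17266379-17266588, plus strand: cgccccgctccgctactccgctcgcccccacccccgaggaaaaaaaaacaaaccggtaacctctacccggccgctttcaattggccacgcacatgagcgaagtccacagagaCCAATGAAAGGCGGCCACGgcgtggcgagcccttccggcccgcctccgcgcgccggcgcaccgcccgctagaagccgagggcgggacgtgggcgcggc
Dnajc3, chr14:118937722-118937931, plus strand: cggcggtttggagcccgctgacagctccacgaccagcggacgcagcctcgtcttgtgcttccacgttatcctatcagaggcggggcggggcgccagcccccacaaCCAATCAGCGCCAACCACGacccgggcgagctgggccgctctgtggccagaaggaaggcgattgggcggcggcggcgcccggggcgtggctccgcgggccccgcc
Herpud1, chr8:94386219-94386428, plus strand: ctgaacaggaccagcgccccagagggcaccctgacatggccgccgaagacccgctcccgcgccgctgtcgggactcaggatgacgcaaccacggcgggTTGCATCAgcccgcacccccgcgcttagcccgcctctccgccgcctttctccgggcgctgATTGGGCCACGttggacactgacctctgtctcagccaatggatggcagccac

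Values are linear signals on a scale that the depositors had set alike for all arrays (a 2% trimmed mean of 100.001 on each). Other measures were not alike on that scale. The hybridisation controls bioC, bioD and cre had a geometric mean of 1941 on RPE, 3192 on CBPE and 1239 on IPE. The 75th percentile was 82.9 on RPE, 76.4 on CBPE and 100.2 on IPE. The part of these differences in the results was not tested. The floor was each array's median signal: 16.8 on RPE, 17.3 on CBPE and 14.5 on IPE. A gene is counted as higher or lower where its signals differed at least 2-fold. With 1 array per culture no test was possible, and no replicate error exists for any value. The only error the table gives is the disagreement between probe sets of 1 gene, whose log2 differences had an SD of 0.46 for RPE over IPE, 0.50 for CBPE over IPE and 0.29 for RPE over CBPE. RPE over IPE and CBPE over IPE share the IPE array, so their values are given side by side and are not independent. The 3′ to 5′ signal ratio of Actb, a sign of RNA length, was 2.25 on RPE and 2.26 on CBPE, against 1.50 on IPE; its part in the results was not tested. In cultures of mixed cells, fewer cells of a type and less RNA per cell cannot be told apart.

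Genes that make serine, glycine and asparagine had higher signals in RPE and CBPE than in IPE. In RPE over IPE, 10 of the 27 ATF4-linked genes passed 2-fold upward and 0 downward, where 9.87% of 12447 measured genes were higher and 10.5% lower. In CBPE over IPE, 12 of 27 were higher and 0 lower, where 11.8% of 12832 genes were higher and 12.5% lower. Their median log2 difference was 0.58 in RPE over IPE and 0.81 in CBPE over IPE, against 0.02 and 0.04 over all measured genes. In RPE over CBPE, 0 of 27 passed 2-fold either way, where 3.75% of 12861 genes were higher and 4.26% lower. The median there was -0.20, against 0.00 over all genes. The ER folding genes had 1 of 12 higher and 1 of 12 lower in both RPE over IPE and CBPE over IPE, and 0 either way in RPE over CBPE.

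**Figure D1:**
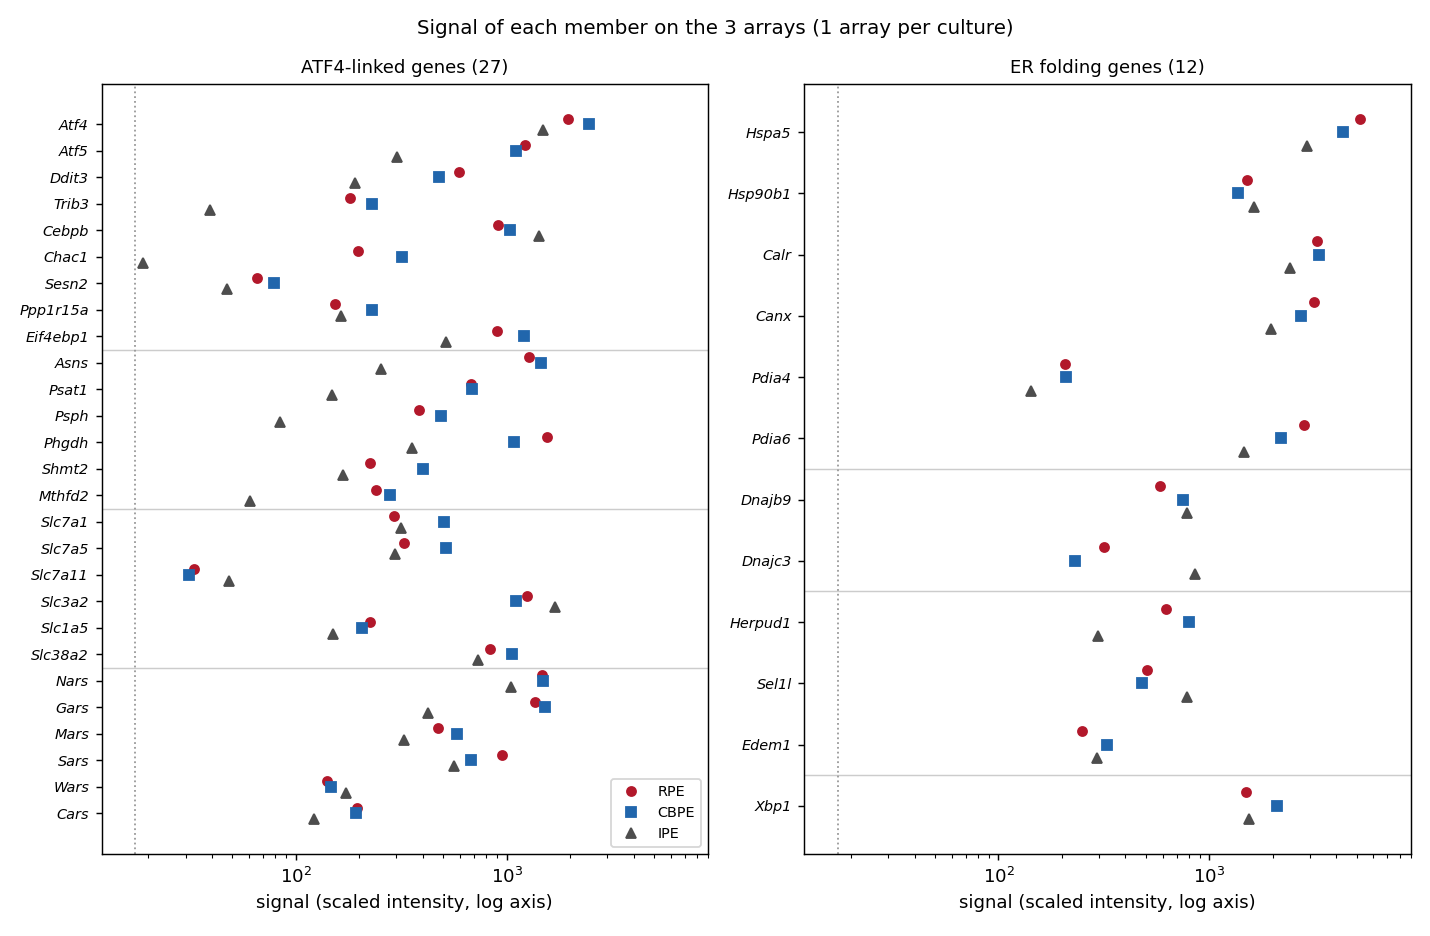
Signal of each of the 39 genes on a log axis, by role; each point is 1 array, RPE, CBPE or IPE, and the dotted line is the highest of the 3 floors, 17.3. RPE and CBPE lie together and above IPE for the synthesis enzymes, for instance at 1272 and 1458 against 253 for Asns. By the probe set used, 0 of the 6 transporters differ 2-fold. Over all measured genes, 9.87% were higher and 10.5% lower in RPE over IPE, so with 6 genes a count of 0 is near the background.

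All 6 synthesis enzymes had higher signals in both RPE and CBPE than on the IPE array. Asns, asparagine synthetase and the best known ATF4 target, had a signal of 1272 in RPE and 1458 in CBPE, against 253 in IPE. Its signal in RPE was thus 5.02 times and in CBPE 5.75 times that in IPE, and RPE and CBPE lay close together. Its other probe set gave 804.5 in RPE and 1072 in CBPE, against 140.2 in IPE. Ranked among all measured genes, the Asns difference was number 140 of 12447 in RPE over IPE and number 162 of 12832 in CBPE over IPE.

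The 3 enzymes that make serine from a glycolytic intermediate were high in the same 2 cultures. Phgdh, which takes the opening step, had 1548 in RPE and 1084 in CBPE, against 355 in IPE. RPE was 4.36-fold and CBPE 3.05-fold above IPE. By the probe set used, RPE was 1.43-fold above CBPE, an order that no other synthesis enzyme had. All 4 Phgdh probe sets were higher in both cultures than in IPE, 3 of them past 2-fold in RPE and 2 in CBPE. Psat1, the transaminase that follows, had 678 in RPE and 683 in CBPE, against 148 in IPE. The other Psat1 probe set had RPE above CBPE, with 412.2 in RPE and 380 in CBPE, against 83.5 in IPE. Psph, the phosphatase that releases serine, had 383 in RPE and 489.7 in CBPE, against 84.2 in IPE. Psat1 was therefore 4.58-fold above IPE in RPE and 4.62-fold in CBPE, and Psph 4.55-fold and 5.82-fold.

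The mitochondrial folate enzymes followed less evenly. Mthfd2, which oxidises methylene-folate in mitochondria, had 239 in RPE and 280.1 in CBPE, against 60.6 in IPE, or 3.94-fold and 4.62-fold higher than IPE. Shmt2, which splits serine into glycine and a folate-bound carbon, had 226 in RPE and 401 in CBPE, against 167 in IPE. It was 2.40-fold above IPE in CBPE and 1.35-fold in RPE, the RPE value within the spread between probe sets. In all, 5 of 6 synthesis enzymes passed 2-fold upward in RPE over IPE, where 9.87% of all measured genes did. In CBPE over IPE 6 of 6 did, against 11.8% of all measured genes. The enzymes' median log2 differences were 2.15 and 2.21. The median in RPE over CBPE was -0.21.

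**Figure D2:**
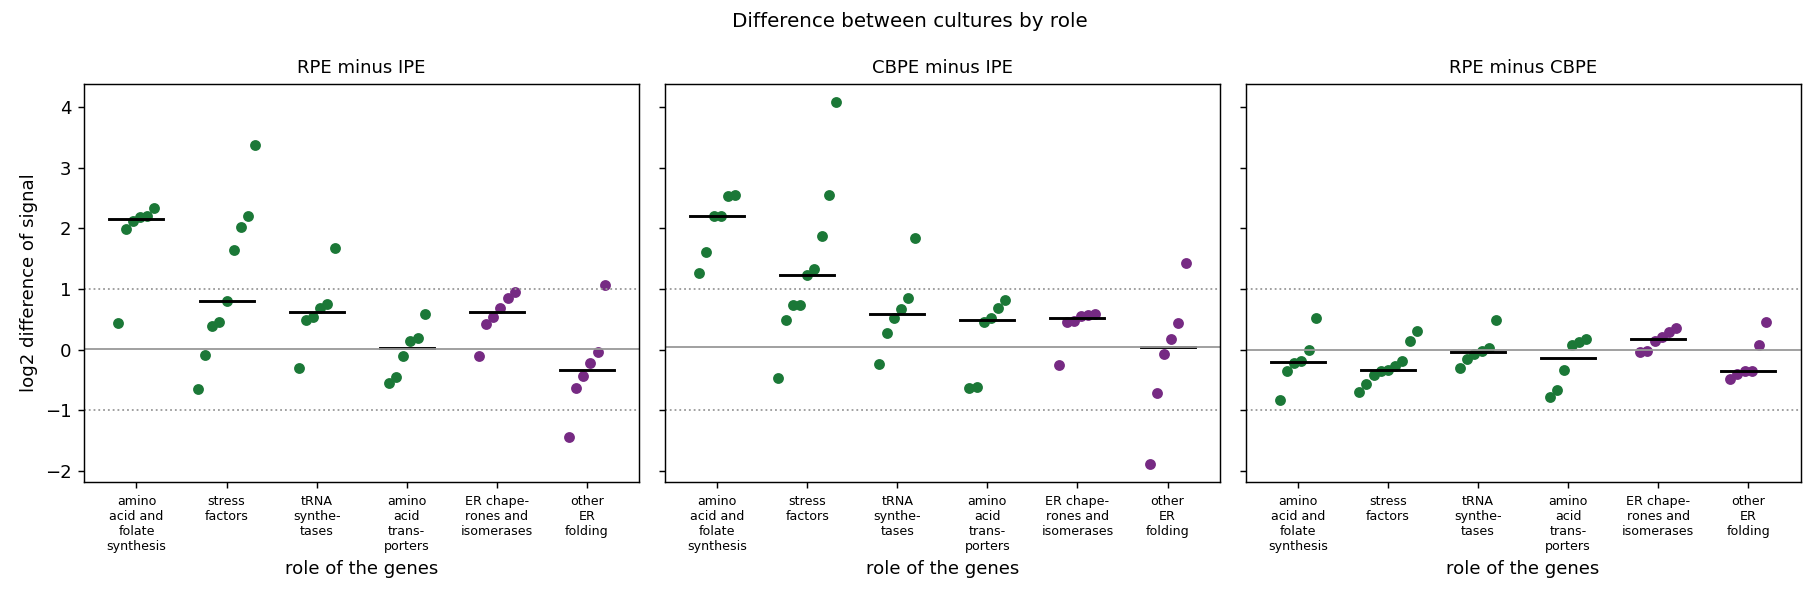
Log2 difference of signal for RPE minus IPE, CBPE minus IPE and RPE minus CBPE, by role of the genes; each point is 1 gene, green for ATF4-linked and purple for ER folding genes, black bars are medians, the grey line is the median of all measured genes and dotted lines mark 2-fold. The synthesis enzymes have the highest medians, 2.15 and 2.21 over IPE. No gene passes 2-fold in RPE minus CBPE, where 3.75% of all measured genes were higher and 4.26% lower.

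Of the 9 stress factors, Chac1, Trib3, Atf5 and Ddit3 were past 2-fold in both RPE and CBPE over IPE. Atf4 itself had 1950 in RPE and 2460 in CBPE, against 1486 in IPE. That is 1.31-fold and 1.66-fold above IPE, under the 2-fold limit in both. The mRNA signal alone does not give the level of ATF4 protein, which also depends on translation. Atf5, a related factor that is also controlled by translation, had 1222 in RPE and 1103 in CBPE, against 302 in IPE. RPE was 4.05-fold and CBPE 3.65-fold above IPE.

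Chac1, which breaks down glutathione, had the widest difference of all 39 genes. Its signal was 196 in RPE and 320.5 in CBPE, against 18.9 in IPE, where it lay just above the floor of 14.5. The difference was 10.4-fold in RPE over IPE and 17.0-fold in CBPE over IPE, and the IPE value so near the floor leaves both folds imprecise. Trib3, a pseudokinase that holds back ATF4 and Akt, had 179.9 in RPE and 229 in CBPE, against 39.3 in IPE. It was 4.58-fold and 5.83-fold above IPE, and its other probe set gave 131 in RPE and 147 in CBPE, against 38.0 in IPE. Ddit3, the factor CHOP, which promotes death under lasting ER stress, had 593 in RPE and 477 in CBPE, against 191 in IPE, or 3.11-fold and 2.50-fold higher.

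Of the other 4 stress factors, Eif4ebp1 passed 2-fold in CBPE over IPE by the probe set used. Eif4ebp1, which blocks cap-dependent translation, had 898 in RPE and 1203 in CBPE, against 513 in IPE, 1.75-fold and 2.34-fold above IPE. Sesn2, which signals leucine shortage to mTORC1, had 65.3 in RPE and 78.5 in CBPE, against 47.4 in IPE, 1.38-fold and 1.66-fold above IPE. A dimmer Sesn2 probe set gave 45.4 in RPE and 41.5 in CBPE, and was under the floor in IPE at 13.8, so it was at least 3.13-fold and 2.86-fold above IPE. Quantile normalization also put the brighter one past 2-fold in CBPE over IPE, at a log2 value of 1.08. Ppp1r15a, the GADD34 subunit that removes the phosphate from eIF2, had 154 in RPE and 229 in CBPE, against 164 in IPE, under 2-fold in every comparison. Cebpb, a C/EBP partner of ATF4, ran the other way with 907 in RPE and 1034 in CBPE, against 1425 in IPE. It was 1.57-fold lower in RPE and 1.38-fold lower in CBPE. The other Cebpb probe set gave 252.8 in RPE and 180.9 in CBPE, against 483.4 in IPE. By that one Cebpb was 1.91-fold lower in RPE and 2.67-fold lower in CBPE, past the 2-fold limit in CBPE. In all, 4 of 9 stress factors were past 2-fold higher in RPE over IPE, where 9.87% of all measured genes were. In CBPE over IPE 5 of 9 were, against 11.8% of all measured genes. The stress factors' median log2 differences were 0.81 and 1.23.

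The amino acid transporters were split, and 0 of 6 passed 2-fold in any comparison by the probe set used. Over all measured genes, 9.87% were higher and 10.5% lower in RPE over IPE, and 11.8% and 12.5% in CBPE over IPE. In RPE over CBPE these shares were 3.75% and 4.26%. With 6 genes, a count of 0 is near these shares. Slc7a1, the importer of arginine and lysine, had 293 in RPE and 503.5 in CBPE, against 314 in IPE. Slc7a5, the LAT1 importer of large neutral amino acids, had 325 in RPE and 516 in CBPE, against 294 in IPE. Both were highest in CBPE, by 1.72-fold and 1.59-fold over RPE. Slc38a2, the SNAT2 importer of small neutral amino acids, was also highest in CBPE, with 832 in RPE and 1057 in CBPE, against 733 in IPE. Another Slc38a2 probe set was instead highest in RPE, with 166.5 in RPE and 101.4 in CBPE, against 96.8 in IPE. A dimmer Slc38a2 probe set had 29.5 in RPE and 34.5 in CBPE, against 16.2 in IPE, 1.82-fold and 2.13-fold above IPE.

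Slc3a2, the heavy chain that pairs with Slc7a5 and Slc7a11, was instead highest in IPE. It had 1252 in RPE and 1113 in CBPE, against 1704 in IPE, 1.36-fold and 1.53-fold lower than IPE. Slc7a11, the cystine importer whose promoter holds a pair of ATF4 motifs, was dim, with 32.8 in RPE and 31.0 in CBPE, against 48.1 in IPE. Its other probe set was under the floor in RPE at 13.7 and in CBPE at 11.6 and read 84.5 in IPE, so it was at least 5.03-fold lower in RPE. With a floor at the 60th percentile Slc7a11 passed 2-fold, at log2 values of -1.63 in RPE over IPE and -1.66 in CBPE over IPE. Slc1a5, the glutamine importer ASCT2, had 226 in RPE and 207 in CBPE, against 150.4 in IPE. The transporters' median log2 difference was 0.02 in RPE over IPE, 0.49 in CBPE over IPE and -0.13 in RPE over CBPE.

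Of the 6 cytosolic tRNA synthetases, which load amino acids onto tRNA, Gars alone passed 2-fold. Over all measured genes, 9.87% were higher in RPE over IPE and 11.8% in CBPE over IPE. Gars, the glycine enzyme, had 1356 in RPE and 1519 in CBPE, against 423 in IPE, 3.21-fold and 3.59-fold higher. The other enzymes with higher signals lay between 1.20-fold and 1.80-fold above IPE. Nars, for asparagine, had 1468 in RPE and 1489 in CBPE, against 1044 in IPE. Mars, for methionine, had 471 in RPE and 583 in CBPE, against 324 in IPE. Sars, for serine, had 953.5 in RPE and 679 in CBPE, against 564 in IPE. Mars was thus highest in CBPE and Sars in RPE. Nars differed 1.01-fold between RPE and CBPE, and its order turned under quantile normalization and under equal medians.

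Cars, for cysteine, had 196 in RPE and 193 in CBPE, against 122 in IPE. Wars, for tryptophan, was the exception with 139.9 in RPE and 146.5 in CBPE, against 172 in IPE, and its probe sets did not share a direction. The synthetases' median log2 difference was 0.61 in RPE over IPE and 0.59 in CBPE over IPE, and -0.04 in RPE over CBPE. A second probe set of Sars passed 2-fold over IPE in both cultures, by 2.56-fold in RPE and 2.14-fold in CBPE.

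By the probe set used, 5 of the 6 chaperones and disulfide isomerases of the ER had higher signals in RPE and in CBPE than in IPE. Past 2-fold were 0 of 6 in any comparison. Over all measured genes, 9.87% were higher and 10.5% lower in RPE over IPE, and 11.8% and 12.5% in CBPE over IPE. In RPE over CBPE these shares were 3.75% and 4.26%. With 6 genes, a count of 0 is near these shares. The higher direction over IPE depended on the scaling. Under quantile normalization the log2 difference in CBPE over IPE was -0.18 for Hspa5, -0.22 for Calr and -0.08 for Canx. Calr was also at -0.02 in RPE over IPE. Hspa5, the master chaperone BiP, had 5207 in RPE and 4286 in CBPE, against 2900.5 in IPE. Pdia6, a disulfide isomerase, had 2811 in RPE and 2188 in CBPE, against 1464 in IPE. Hspa5 was therefore 1.80-fold above IPE in RPE and 1.48-fold in CBPE, and Pdia6 1.92-fold and 1.49-fold. The size for Hspa5 varied with the probe set. Another gave 2538 in RPE and 3216 in CBPE, against 2044 in IPE, with CBPE above RPE. A dimmer one gave 190.1 in RPE and 207.3 in CBPE, against 96.9 in IPE, 1.96-fold and 2.14-fold above IPE. Calr, the soluble lectin chaperone, had 3250.5 in RPE and 3331 in CBPE, against 2424.5 in IPE. Pdia4, another isomerase, had 207 in RPE and 209 in CBPE, against 142 in IPE.

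Canx and Hsp90b1 also depended on the probe set. Canx, the membrane lectin chaperone, had 3148 in RPE and 2720 in CBPE, against 1961 in IPE, by its brightest probe set. Another Canx probe set gave 546 in RPE and 437 in CBPE, against 922 in IPE, the opposite direction. Hsp90b1, the chaperone GRP94, had 1511 in RPE and 1367 in CBPE, against 1628 in IPE, and its other probe set gave 574 in RPE and 386 in CBPE, against 1554 in IPE. Both Hsp90b1 probe sets were lower in RPE and CBPE, but by very different amounts. The median log2 difference of the 6 genes was 0.61 in RPE over IPE, 0.52 in CBPE over IPE and 0.18 in RPE over CBPE.

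The remaining ER genes ran in opposite directions. Herpud1, an organiser of ER-associated degradation with motifs of both branches in its promoter, had 621.5 in RPE and 798 in CBPE, against 296 in IPE. RPE was 2.10-fold and CBPE 2.70-fold above IPE, while its other probe set gave a smaller difference, 1.38-fold and 1.55-fold. Dnajc3, the co-chaperone p58IPK that also restrains the kinase PERK, had 316 in RPE and 231 in CBPE, against 854 in IPE, 2.70-fold and 3.70-fold lower than IPE. Of its 5 probe sets, 4 were lower in RPE and CBPE, and 1 was higher, with 465 in RPE and 407 in CBPE, against 298 in IPE.

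Sel1l, the scaffold of the HRD1 ubiquitin ligase, was also lower in RPE and CBPE, with 505 in RPE and 478 in CBPE, against 784 in IPE. All 5 of its probe sets had that direction, 1 of them under the floor in CBPE, and the size varied widely between them. The brightest put RPE 1.55-fold and CBPE 1.64-fold under IPE, and the widest 2.90-fold and 3.84-fold lower. Another was 2.43-fold and 2.32-fold lower, so the call of Sel1l as under 2-fold rests on the probe set used. Dnajb9, the co-chaperone ERdj4, had 584 in RPE and 749 in CBPE, against 786 in IPE. Edem1, a lectin that hands misfolded glycoproteins to degradation, had 249 in RPE and 327.5 in CBPE, against 292 in IPE, and its other probe set put both RPE and CBPE above IPE. Xbp1, the factor spliced by IRE1, had 1498 in RPE and 2089 in CBPE, against 1539.9 in IPE, and its 4 probe sets did not share a direction; the array does not tell spliced from unspliced Xbp1 mRNA here.

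The median log2 difference of the 12 ER folding genes was 0.19 in RPE over IPE, 0.45 in CBPE over IPE and 0.03 in RPE over CBPE. Their sign depended on the processing: the RPE over IPE median was below 0 in 4 of 7 alternative settings, with a low of -0.23, the CBPE over IPE median in 1 of 7 and the RPE over CBPE median in 2 of 7. The ATF4-linked medians kept their sign in all 7, lying between 0.37 and 0.71 in RPE over IPE and between 0.56 and 0.97 in CBPE over IPE.

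**Figure D3:**
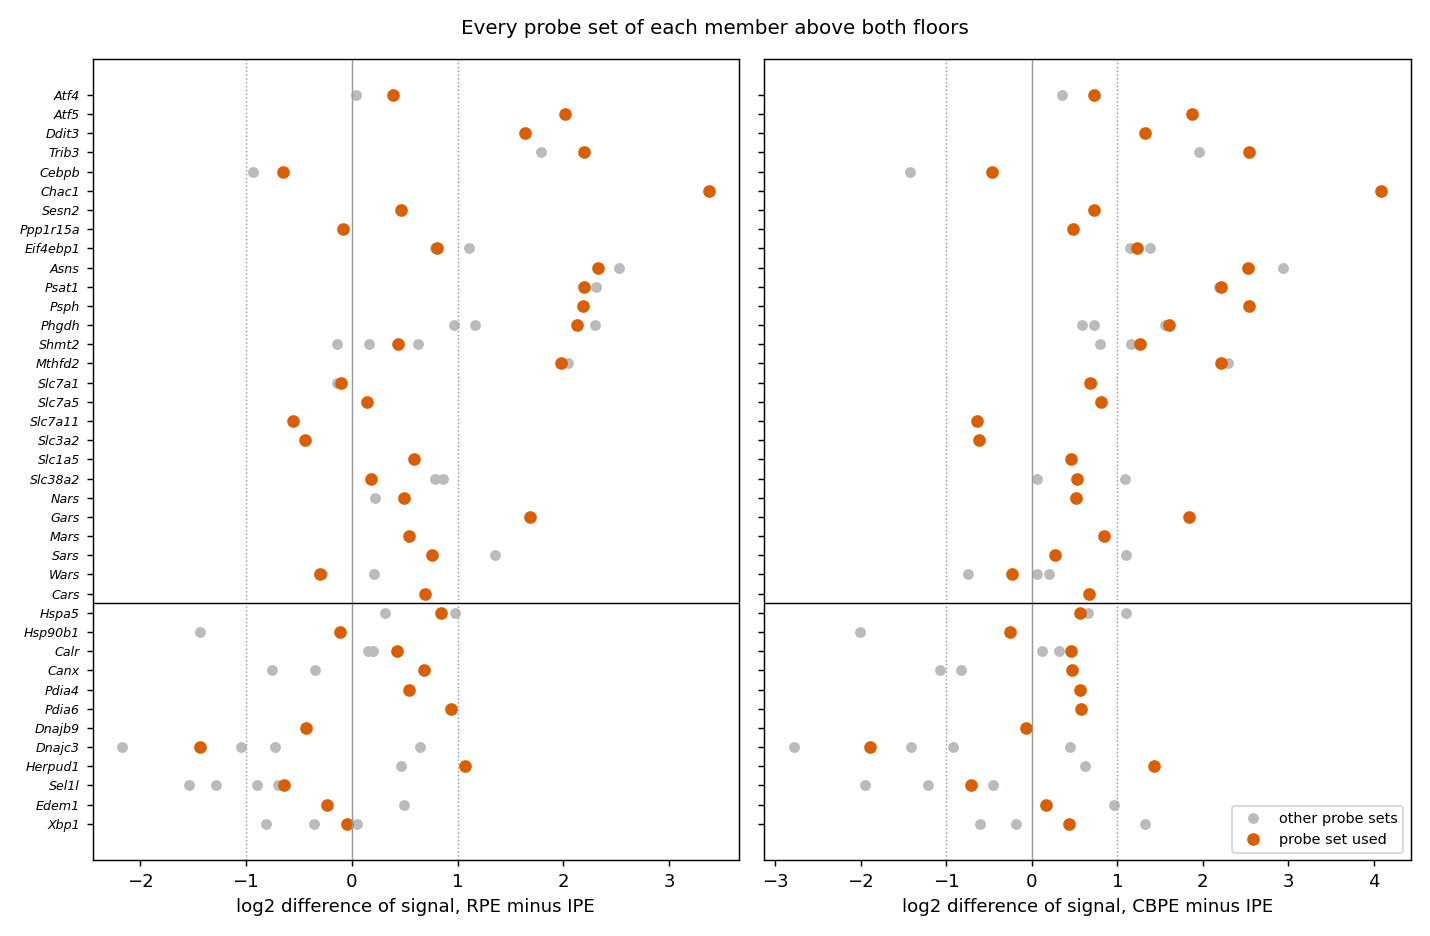
Log2 difference of every probe set above both floors for the 39 members, ATF4-linked above the line and ER folding below it, for RPE minus IPE and CBPE minus IPE; orange points are the probe set used, grey points the others, and dotted lines mark 2-fold. Both Asns probe sets lie above 2, while the 5 Dnajc3 probe sets lie on both sides of 0.

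Probe sets of 1 gene served as the only repeat measurement. Of 23 members with at least 2 probe sets above both floors, 17 had all of them in 1 direction in RPE over IPE and 19 in CBPE over IPE. Shmt2, Wars, Canx, Dnajc3, Edem1 and Xbp1 did not in RPE over IPE, and Wars, Canx, Dnajc3 and Xbp1 did not in CBPE over IPE. In RPE over CBPE 16 of 25 did, where the differences themselves were smaller. Of the members past 2-fold, 7 of 12 in RPE over IPE had several probe sets and 6 of these 7 shared a direction. In CBPE over IPE 9 of 14 had several, and 8 of these 9 shared a direction. Dnajc3 was the exception in both.

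No member differed 2-fold between RPE and CBPE by the probe set used, where 3.75% of 12861 genes were higher and 4.26% lower. A dimmer Shmt2 probe set differed 2-fold, with 55.3 in RPE and 117.8 in CBPE, 2.13-fold apart. So did a dimmer Xbp1 probe set, with 51.8 in RPE and 125.5 in CBPE, 2.42-fold apart. The ATF4-linked differences in RPE over CBPE ran between a log2 value of -0.83 for Shmt2 and 0.51 for Phgdh, and 19 of 27 were below 0. The ER folding differences ran between -0.48 for Xbp1 and 0.45 for Dnajc3, with 6 of 12 below 0. Shmt2, Slc7a1, Chac1 and Slc7a5 differed by more than 2 times the SD between probe sets of 0.29. All had CBPE higher, by 1.78-fold for Shmt2 and 1.63-fold for Chac1. The share of all genes past that limit was not computed, and that SD is not an error between cultures. Ranked from the highest, Slc7a5 was number 11479 of 12861 genes, with 89.3% of genes at or above it.

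The sensors upstream of the pathway came from a list of 80 further pathway genes. For these genes and for the cell type markers below, agreement between the probe set used and any others was not examined. Of 11 sensors and eIF2 factors measured, 0 were higher and 4 lower in RPE over IPE, and 0 were higher and 2 lower in CBPE over IPE. Over all genes 10.5% were lower in RPE over IPE and 12.5% in CBPE over IPE, so 2 of 11 is near that share. Eif2ak4, the kinase GCN2 that senses uncharged tRNA, had 46.2 in RPE and 54.0 in CBPE, against 83.5 in IPE. Eif2ak3, the ER kinase PERK, had 229 in RPE and 229 in CBPE, against 162 in IPE, the only one of the 5 kinases with the order of the ATF4-linked genes. Eif2ak1, the haem-sensing kinase, had 117 in RPE and 126 in CBPE, against 245 in IPE, 2.10-fold and 1.94-fold lower. Eif2ak2, the kinase PKR that senses double-stranded RNA, had 65.6 in RPE and 61.4 in CBPE, against 174 in IPE, 2.65-fold and 2.83-fold lower. Ern1, the ER kinase IRE1, had 78.7 in RPE and 126 in CBPE, against 225 in IPE, 2.86-fold and 1.79-fold lower. Atf6, the membrane-bound factor of the ER branch, had 95.6 in RPE and 112 in CBPE, against 229 in IPE, 2.39-fold and 2.05-fold lower.

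Other ATF4-linked genes went both ways. Of 24 measured, 7 were higher and 5 lower in RPE over IPE, and of 25 measured, 9 were higher and 4 lower in CBPE over IPE, with median log2 differences of -0.02 and 0.33. The shares over all genes were 9.87% higher and 10.5% lower, and 11.8% higher and 12.5% lower. In this list 29.2% were higher and 20.8% lower in RPE over IPE, and 36.0% higher and 16.0% lower in CBPE over IPE. The 16.0% lower, 4 of 25, is near the background, and the other shares lie above it. Nupr1, a small chromatin protein induced by stress, had 3145 in RPE and 3146 in CBPE, against 824 in IPE, 3.82-fold higher in both. Aldh1l2 had 300.8 in RPE and 424.8 in CBPE, against 48.0 in IPE, 6.27-fold and 8.85-fold higher. Pck2 had 672.7 in RPE and 614 in CBPE, against 158.7 in IPE, 4.24-fold and 3.87-fold higher. Got1, the cytosolic aspartate transaminase, had 172 in RPE and 218 in CBPE, against 916 in IPE, 5.34-fold and 4.20-fold lower. Vegfa, the vascular growth factor, which hypoxia also controls, had 55.4 in RPE and 196.5 in CBPE, against 720.4 in IPE, 13.0-fold and 3.67-fold lower. Sqstm1, the autophagy receptor p62, had 1611 in RPE and 1133 in CBPE, against 2624 in IPE, 1.63-fold and 2.32-fold lower. Atf3, a stress factor downstream of ATF4, was under the floor in RPE at 11.7, with 66.2 in CBPE and 87.2 in IPE, so RPE was at least 3.94-fold lower than CBPE and at least 5.19-fold lower than IPE.

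Of 13 other cytosolic synthetases, 1 was higher in RPE over IPE and 3 in CBPE over IPE, and 0 were lower in either. With 9.87% of all genes higher in RPE over IPE, 1 of 13 is not above the background. Of 26 other ER folding genes, 4 were higher and 0 lower in RPE over IPE, and 10 were higher and 1 lower in CBPE over IPE, where 11.8% of all genes were higher. Manf, a secreted factor released under ER stress, had 2612 in RPE and 3507 in CBPE, against 1354 in IPE, 1.93-fold and 2.59-fold higher. Txndc5, a disulfide isomerase, had 2174 in RPE and 2429 in CBPE, against 879 in IPE, 2.47-fold and 2.76-fold higher. Derl2, a channel component of ER-associated degradation, had 939.5 in RPE and 869 in CBPE, against 379 in IPE, 2.48-fold and 2.29-fold higher. Selenos, which works beside Derl2, had 1456 in RPE and 1977 in CBPE, against 700.4 in IPE, 2.08-fold and 2.82-fold higher.

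The translocon genes Ssr1 and Sec61b were 2.82-fold and 2.26-fold above IPE in CBPE, with 2859 and 2885 in CBPE, against 1012.5 and 1276 in IPE. Hspa13, an ER-linked Hsp70 relative, was the lower member, with 269 in CBPE, against 618 in IPE. In RPE over CBPE, 0 of 75 further genes were higher and 5 lower, where 3.75% of all genes were higher and 4.26% lower. Among those lower was the ER oxidase Ero1l, with 232 in RPE, against 625.5 in CBPE. The chaperone Hyou1, with 174 in RPE, against 421 in CBPE, was another. Ero1l was 2.70-fold and Hyou1 2.42-fold lower in RPE than in CBPE. Vegfa was 3.55-fold lower in RPE than in CBPE.

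**Figure D4:**
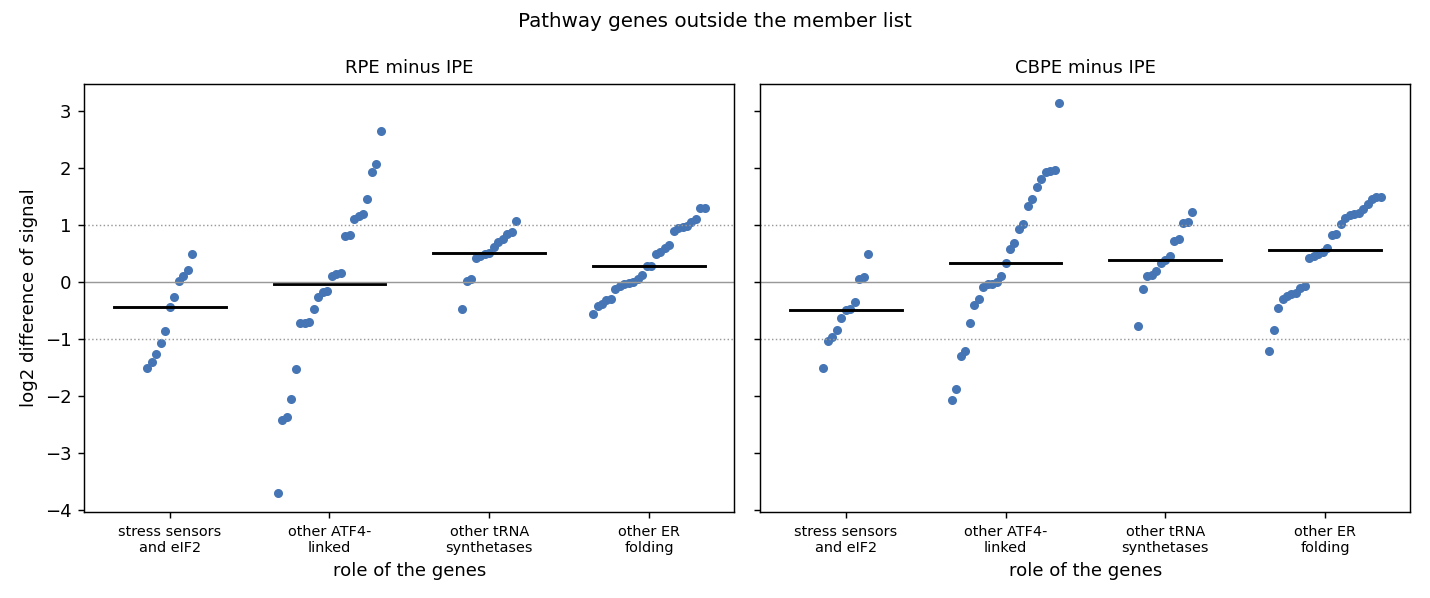
Log2 difference over IPE of the further pathway genes by role, for RPE and CBPE; each point is 1 gene that was over the floor of either array compared, black bars are medians and dotted lines mark 2-fold. The sensors and eIF2 factors have medians of -0.43 in RPE and -0.49 in CBPE, and the other ER folding genes 0.28 and 0.56.

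The genes whose pattern over the 3 arrays was most like that of Asns were sought among 5620 genes above 100 on all arrays, which leaves out Psph, Trib3, Mthfd2, Chac1, Sesn2 and Slc7a11. The smallest Euclidean distances between centred log2 signals were those of Fkbp7 (0.075), Lxn (0.105), Emp1 (0.124), Ang (0.146) and Spats2l (0.174). Fkbp7, which encodes a prolyl isomerase of the ER, had 3132 in RPE and 3824 in CBPE, against 623 in IPE. Of the members that entered, Psat1 was nearest, in place 12 with a distance of 0.225. Among all 10244 genes above the floor on every array, a limit chosen after seeing the data, Trib3 was in place 7 with a distance of 0.118 and Psph in place 8 with 0.123. Psat1 was then in place 22 and Mthfd2 in place 33, and Fkbp7 alone of the 5 genes above stayed among the nearest 5. Likeness over 3 arrays is a description of 3 numbers, and many genes share it.

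Markers of cell types also differed between the cultures, and their sums rest on a few bright genes. Over all measured genes, 9.87% were higher and 10.5% lower in RPE over IPE, and 11.8% and 12.5% in CBPE over IPE. In RPE over CBPE these shares were 3.75% and 4.26%. Of 11 pigment epithelium markers, 10 were above the floor in RPE, 8 in CBPE and 10 in IPE, with summed signals of 2027 in RPE and 1165 in CBPE, against 6043 in IPE. Past 2-fold, among 10 measured, 0 were higher and 8 lower in RPE over IPE, and 2 were higher (Krt8 and Krt18) and 8 lower in CBPE over IPE. Rpe65, the visual cycle isomerase that defines mature RPE, was under the floor in all 3, the RPE culture included.

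All 10 fibroblast markers were above the floor in every culture, and their sum was 45613 in RPE and 57224.5 in CBPE, against 28668 in IPE. They did not run 1 way: 3 were higher and 2 lower in RPE over IPE, and 5 higher and 1 lower in CBPE over IPE. Pdgfra, with 958 in RPE and 777 in CBPE, against 2020.3 in IPE, was lower in both. Skeletal muscle markers summed to 1505 in RPE and 1484 in CBPE, against 167 in IPE, with 6 of 8 above the floor in RPE, 5 in CBPE and 2 in IPE, and Ckm and Myog under it in all. Myh2 alone gave 809 of that in RPE and 1363 in CBPE, while Myl1 had 270.6 in RPE and 29.0 in CBPE, and Des was highest in IPE. Of those measured, 5 of 6 were higher and 1 lower in RPE over IPE, and 3 of 5 higher and 1 lower in CBPE over IPE.

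Glial markers summed to 1872.5 in RPE and 910.4 in CBPE, against 7824.5 in IPE, mostly from Apoe, Glul and Dkk3, with 6 of 8 above the floor in RPE, 5 in CBPE and 7 in IPE. Of those measured, 0 of 7 were higher and 4 lower in RPE over IPE, and 1 of 8 higher and 4 lower in CBPE over IPE. Leukocyte markers summed to 440 in RPE and 2279 in CBPE, against 334 in IPE, with 6 of 10 above the floor in RPE, 8 in CBPE and 4 in IPE, and the pan-leukocyte gene Ptprc under it in all. In RPE over IPE 1 of 7 measured was higher and 0 lower, and in CBPE over IPE 7 of 8 were higher and 0 lower. In RPE over CBPE 0 of 8 were higher and 8 lower. Endothelial markers summed to 380.3 in RPE and 1640.2 in CBPE, against 894.5 in IPE, with 4 of 8 above the floor in RPE, 8 in CBPE and 4 in IPE. Emcn alone gave 745.1 of the IPE sum. Of the endothelial markers measured, 1 of 5 was higher and 1 lower in RPE over IPE. In CBPE over IPE 5 of 8 were higher and 0 lower, and in RPE over CBPE 0 of 8 were higher and 5 lower. The part of these cell type markers in the results was not tested. The marker genes named beyond those under the floor were chosen after their values were seen.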

How the data were processed

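The authors deposited a table of linear intensity for 45101 probe sets, 64 of them controls, on 3 arrays. Per the labels' protocols, cDNA was primed with oligo-dT on 1 µg of total RNA and biotin-labelled with an Affymetrix transcription kit. The sources used here name neither the summary software nor a genome build. The deposited scale was kept. Spots and detection calls were not used here, and the number of arrays limits the precision.

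Gene symbols came from the platform annotation of 2016, updated through the gene ID to the RefSeq table of GRCm38.p6. The annotation lists 35890 probe sets: 34958 carry 1 gene, and the 932 with several genes were left out. It does not list 9211 others.

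Signals under each array's floor (the 50th percentile of non-control probe sets) were raised to it and log2 taken. A gene was measured in a comparison where either array was above its floor. A fold against a signal under the floor is a lower bound, over the higher of the floor and the brightest of 27 absent bacterial controls (16.6 on RPE, 20.2 on CBPE, 7.9 on IPE). The SD between probe sets used genes with signals above 100 on both arrays (1774, 1667 and 1694 genes).

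The members and lists were chosen with earlier results of these data known. The text names every member; of the further pathway genes, the stress kinases and, per comparison and direction, the 4 brightest past 2-fold; markers under the floor; and the 5 genes most like Asns. Aldh1l2 and Pck2 were named beyond this rule, after their values were seen. The alternatives were quantile normalization, equal array medians, a floor at the 60th percentile, a fixed floor of 100, no floor, the mean of all probe sets of a gene, and probe sets of 1 transcript. The counting was checked on simulated data. The calculations used Python 3.11.15, numpy 2.4.6, pandas 2.3.3 and matplotlib 3.10.9.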

Additional observations from a re-analysis of the deposited data

How the results depend on the processing

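Of 126 list counts and medians recomputed under 7 alternatives, 13 moved by more than the spread between probe sets (medians) or beyond the limit on counts, and 113 did not. Among these 113, the ER folding median turned below 0 in RPE over IPE in 4 settings, down to -0.23, and in RPE over CBPE in 2 settings, down to -0.04. The ATF4-linked genes at least 2-fold lower in RPE over IPE numbered 1 with a floor at the 60th percentile and likewise 1 when all probe sets were averaged, and those lower in CBPE over IPE numbered 1 under these settings and 1 under quantile normalization. With probe sets of 1 transcript, the ATF4-linked genes higher in RPE over IPE numbered 6 of 21 measured, and Atf5, Trib3, Psat1 and Phgdh had no value. The ER folding genes higher in RPE over IPE numbered 0 under equal medians and 0 when all probe sets were averaged. The ER folding genes lower in CBPE over IPE numbered 3 under that averaging and 2 with probe sets of 1 transcript; in that setting 2 were higher in CBPE over IPE and 1 lower in RPE over CBPE. The ER folding median in CBPE over IPE was -0.13 under quantile normalization. The cause of these shifts was not tested. Of 12 members past 2-fold in RPE over IPE, 7 stayed past it in every setting that gave a value, and of 14 in CBPE over IPE, 12. Ddit3 fell under 2-fold with the mean of all probe sets in both, Trib3 and Chac1 with a fixed floor of 100 in RPE over IPE, Dnajc3 with the mean of all probe sets in RPE over IPE, Herpud1 with that mean and equal medians in RPE over IPE, and Eif4ebp1 under equal medians in CBPE over IPE. Over the 7 settings, 4 members gained a 2-fold difference in RPE over IPE (Sars, Sel1l, Sesn2 and Slc7a11) and 1 in RPE over CBPE (Xbp1). In CBPE over IPE 7 did (Canx, Hsp90b1, Sel1l, Sesn2, Slc3a2, Slc7a11 and Xbp1). Canx gained it in the opposite direction, with probe sets of 1 transcript, at a log2 value of -1.08 in place of 0.47. The sign turned in some setting for 9 members in RPE over IPE, 6 in CBPE over IPE and 10 in RPE over CBPE, none of them past 2-fold as reported. Equal medians moved the median of all genes to -0.20 in RPE over IPE and -0.22 in CBPE over IPE, with 782 genes higher and 1920 lower, and 945 higher and 2369 lower, in place of 1228 and 1303, and 1513 and 1609. Over all genes, leaving out the floor gave 3527 higher and 2865 lower in RPE over IPE, 4068 and 3058 in CBPE over IPE, and 2282 and 2714 in RPE over CBPE, where the reported counts in RPE over CBPE are 482 and 548. A fixed floor of 100 gave 633 and 603, 742 and 770, and 117 and 153, from fewer genes measured. In RPE over CBPE the floor at the 60th percentile gave 359 lower and the mean of probe sets 268 higher. No paired analysis was possible because each culture has 1 array, and for the same reason no replicate could be left out. Signals near the floor, such as Chac1 in IPE and Slc7a11, have the least certain folds.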
